A study of Drosophila melanogaster
Mus musculus with 4 samples.

Results

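The major histocompatibility complex (MHC) of the mouse was followed as the stretch of chromosome 17 from 33.0 to 38 Mb (genome build mm10), in chromatin of early B cell precursors with and without Hdac3. Its members were chosen by position alone: every accessible site of the deposited table that starts at or after 33.0 Mb and before 38 Mb, which came to 310 of 69709 sites. Accessibility was measured by ATAC-seq, in which the transposase Tn5 inserts sequencing adapters into open DNA. There were 2 libraries from mice labelled HDAC3 KO, called Hdac3-deleted below, and they were set against 2 from Hdac3+/+ mice labelled wildtype. All 4 came from C57BL/6 mice aged 8 weeks and from B220+CD43+ cells sorted from the marrow, a gate that takes in early B cell precursors. Each library was made from 50000 sorted cells with 5% Drosophila S2 cells added. The labels do not say how Hdac3 was deleted. Neither the deletion nor the sorted cell type could be checked at marker genes, because no mouse gene annotation was used here.

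The MHC carries the genes through which cells show peptides to T cells. Class I molecules sit on nearly all nucleated cells and present peptides made in the cytosol. Class II molecules are restricted mainly to antigen-presenting cells, B cells among them, and present peptides taken up from outside. Between the class II genes and the distal class I genes lies the class III stretch, with complement components, cytokines of the tumour necrosis factor family and many genes of general function. In the mouse the class I genes stand on both sides: the K end lies before class II, and the D, Q, T and M genes lie beyond class III. Hdac3 is the catalytic subunit of the NCoR and SMRT corepressor complexes and removes acetyl groups from histones.

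The approximate borders used here were 33.9 to 34.1 Mb for the K end of class I, 34.1 to 34.4 Mb for class II, 34.5 to 35.3 Mb for class III and 35.3 to 37.3 Mb for the distal class I stretch. These held 24, 54, 77 and 130 sites. Another 23 sites lay in the flank from 33.0 to 33.9 Mb, and 2 lay in the gap from 34.4 to 34.5 Mb between class II and class III. No site lay in the distal flank from 37.3 to 38 Mb. Sites are named by their deposited positions, and whether a site lies at the start, in an exon or in an intron of a gene was not determined. Many class I genes are close copies of each other. Reads that fit several copies are commonly removed by a mapping quality filter, and the part of such losses in the values of the class I stretches was not tested.

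Over all sites of the table the libraries held 21177343 and 16132402 reads (Hdac3-deleted replicates 1 and 2) and 32988999 and 19017456 reads (wild-type replicates 1 and 2). Of these, 97170 and 70834 reads in Hdac3-deleted cells and 141633 and 80000 reads in wild type fell in the 310 MHC sites. That was 0.459% and 0.439% of the reads in sites for the Hdac3-deleted libraries, against 0.429% and 0.421% for the wild-type libraries. The median MHC site held 198 and 139 reads in the Hdac3-deleted libraries and 264 and 148 reads in the wild-type ones. Below 50 Mb of chromosome Y, 10 peaks were called in wild-type replicate 2 and 0 in each of the other 3 libraries, so that 1 library stood apart there. Whether the replicates were separate mice is not in the labels, and the spread behind each p-value may therefore be technical. No scaling to the S2 cells was made, so a shift of all sites together could not be seen.

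A smaller share of MHC sites than of all sites passed the test for a difference between the genotypes, and the gap between these shares was not itself tested. In Hdac3-deleted cells 21 of 310 sites (6.77%) were higher and 11 (3.55%) were lower, and 278 did not pass the test. Over all 69709 sites, 11.7% were higher and 8.90% were lower, or 20.6% in either direction, against 10.3% in the MHC region and 19.4% of the 2826 sites on the rest of chromosome 17. The median log2 fold change, Hdac3-deleted minus wild type, was 0.04 over the MHC sites and -0.01 over all sites. The MHC median was 0.01 without Hdac3-deleted replicate 1, 0.09 without Hdac3-deleted replicate 2, 0.05 without wild-type replicate 1 and 0.02 without wild-type replicate 2. The test was limma on log2(normalized reads + 1) over all 69709 sites, with Benjamini-Hochberg adjusted p under 0.05 and 2 libraries per genotype. An unadjusted p under 0.05 was found at 17.4% of the MHC sites and 33.0% of all sites. Leaving out Hdac3-deleted replicate 1 gave 8 higher and 9 lower MHC sites, and leaving out wild-type replicate 1 gave 10 higher and 4 lower, with 12.2% and 9.46% of all sites called. Without wild-type replicate 2 there were 17 higher and 10 lower MHC sites.

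**Figure D1:**
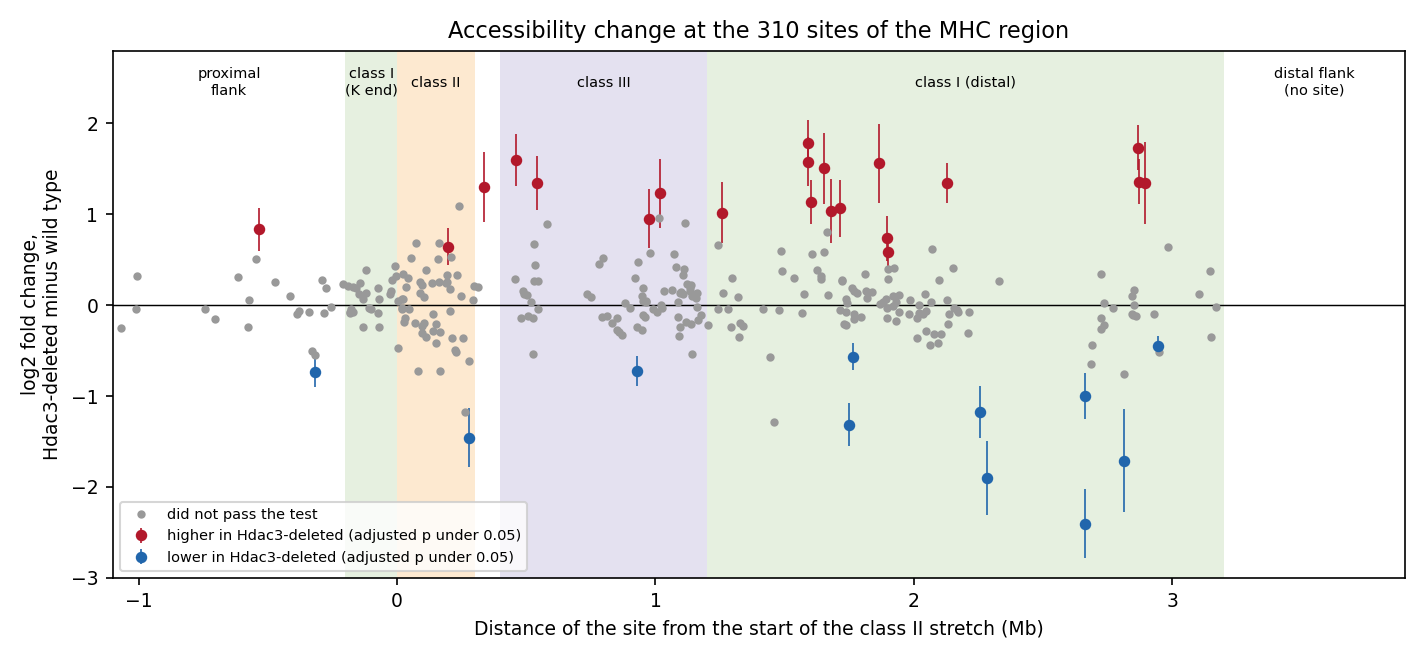
Log2 fold change of each of the 310 MHC sites (y axis, Hdac3-deleted minus wild type) by its distance in Mb from the start of the class II stretch (x axis). Red and blue points passed the test, with the standard error as bars, grey points did not, and shading marks the stretches. Of the 32 called sites, 22 lie in the distal class I stretch and 0 in the K end.

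Counted by stretch, the calls lay mostly beyond class III. The K end of class I had 0 called sites of 24 and class II had 2 of 54 (3.70%). Class III had 5 of 77 (6.49%). The distal class I stretch had 22 of 130 (16.9%), of which 14 were higher and 8 lower, and so held most of the 32 calls. All of these shares were below the 20.6% of the whole table. Between the stretches no test was made. The counts moved with single libraries: class II had 7 calls without Hdac3-deleted replicate 2 and 1 without wild-type replicate 1. Class III had 9 calls without Hdac3-deleted replicate 2, and 2 without Hdac3-deleted replicate 1 or without wild-type replicate 1. The distal class I stretch had 12 without Hdac3-deleted replicate 1 and 10 without wild-type replicate 1.

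**Figure D2:**
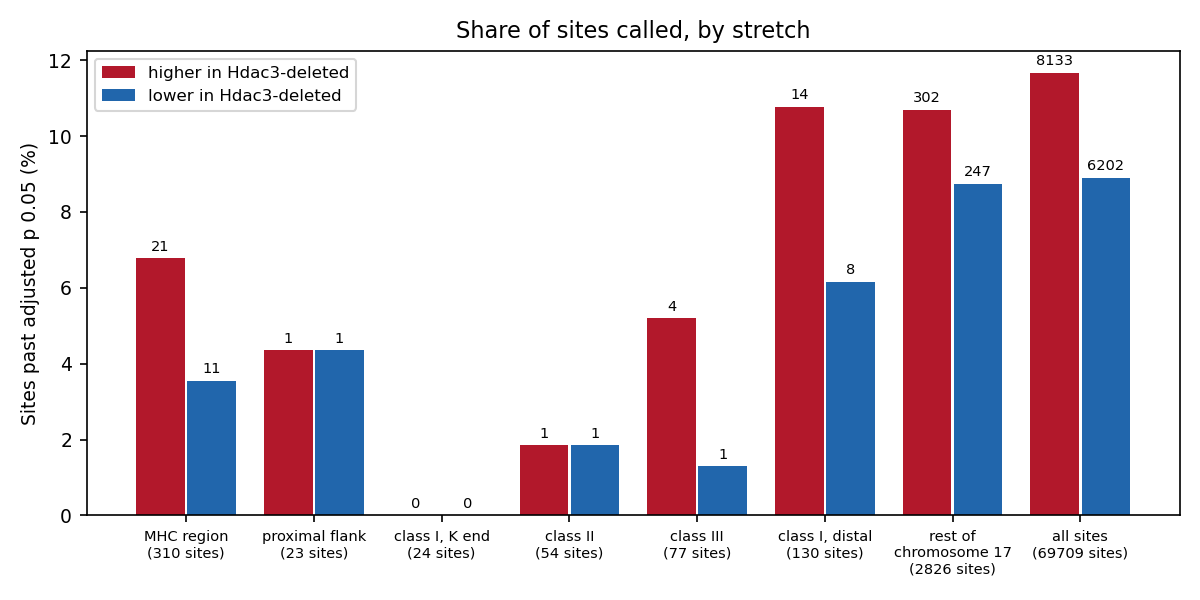
Percent of sites past the adjusted p threshold (y axis) in Hdac3-deleted against wild-type cells, for the MHC region, its stretches, the rest of chromosome 17 and all sites. Red bars are higher and blue bars lower sites, with their number above each bar. The gap of 2 sites is not drawn. Among the MHC stretches drawn, distal class I, with 10.8% higher and 6.15% lower, stands nearest to all sites, with 11.7% and 8.90%. The rest of chromosome 17 had 10.7% and 8.74%.

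Accessible sites were packed most densely in class II, with 180 sites per Mb, against 120 per Mb in the K end, 96.3 in class III, 65.0 in the distal class I stretch and 25.6 in the proximal flank. The median distance to the next site was 3.51 kb in class II, 5.86 kb over the MHC region and 9.38 kb over the whole table. The longest stretch without a site inside the region, 331 kb, lay between 36431870 and 36763358 in the distal class I stretch. Beyond the last site, which ends at 37271205, the next one on the chromosome began 2.57 Mb further on. MHC sites had a median of 179 normalized reads as the mean over all 4 libraries, against 125 over the whole table. Their median width was 374 bp, against 358 bp.

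Class II, as a group of sites, differed between the genotypes by less than its replicates did. The mean log2 level of its 54 sites was 7.41 ± 0.08 in Hdac3-deleted cells and 7.43 ± 0.10 in wild type (SD, n = 2 each). The median log2 fold change was 0.05, and it ran from -0.03 without Hdac3-deleted replicate 1 to 0.10 without Hdac3-deleted replicate 2. Only 1 site was higher, and only 1 was lower. Both genotypes overlapped at 27 of the 54 sites. Both Hdac3-deleted libraries lay above both wild-type libraries at 16 sites (29.6%, against 30.1% of all sites) and below them at 11 (20.4%, against 30.5%).

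The higher class II site, chr17:34295993-34296550, held 412 and 290 normalized reads in Hdac3-deleted replicates 1 and 2 and 226 and 214 in wild-type replicates 1 and 2. The groups did not overlap, and the Hdac3-deleted replicates lay further apart than the wild-type ones. Named calls were chosen among sites with groups that did not overlap, so this trait was fixed by the choice. Its log2 fold change was 0.65 with a standard error of 0.20 (Benjamini-Hochberg adjusted p = 0.0321 in limma). The lower site, chr17:34378745-34379122, held 44.0 and 65.1 normalized reads in Hdac3-deleted cells and 193 and 115 in wild type. Here the wild-type replicates were the ones further apart, with all of the Hdac3-deleted values below them. Its log2 fold change was -1.46 with a standard error of 0.32 (Benjamini-Hochberg adjusted p = 0.00517 in limma). Neither call held without wild-type replicate 1 (adjusted p = 0.0555 for the higher and 0.113 for the lower site, limma), and the higher one was also lost without Hdac3-deleted replicate 1 (log2 fold change 0.39) and without wild-type replicate 2 (adjusted p = 0.0654, limma). Scaling to the tags left after filtering also ended the higher call (adjusted p = 0.236, limma).

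The class II stretch also held strongly open sites, and these did not pass the test. The strongest, chr17:34119080-34119976, had 1180 and 1077 normalized reads in Hdac3-deleted cells and 1095 and 1226 in wild type, with overlapping groups and a log2 fold change of -0.04 ± 0.11 (standard error). The next, chr17:34186937-34187935, had 923 and 1031 in Hdac3-deleted cells and 915 and 861 in wild type. Its groups did not overlap, but its log2 fold change of 0.14 ± 0.11 (standard error) was too small to pass (Benjamini-Hochberg adjusted p = 0.444 in limma).

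In the K end, where the classical class I gene of that end lies, log2 fold changes ran only from -0.24 to 0.43. No site passed the test with all 4 libraries and the deposited scaling by limma, nor with edgeR or DESeq2, while limma after loess scaling called 2 and limma with crossed replicate pairs called 1. Of the limma results, 1 of the 24 had an unadjusted p under 0.05. The stretch had a median log2 fold change of 0.12 (0.07 when Hdac3-deleted replicate 1 was left out), and each pairing of 1 Hdac3-deleted with 1 wild-type library gave a median between 0.07 and 0.19. The mean log2 level was 8.03 ± 0.09 in Hdac3-deleted cells and 7.94 ± 0.03 in wild type (SD, n = 2 each). The strongest site, chr17:33908700-33910267, had 1448 and 1472 normalized reads in Hdac3-deleted cells and 1362 and 1172 in wild type (log2 fold change 0.21, Benjamini-Hochberg adjusted p = 0.157 in limma), and it was among those that passed after loess scaling (log2 fold change 0.29, adjusted p = 0.0405, limma). At chr17:33999424-34000846 Hdac3-deleted cells had 1051 and 784 and wild type had 897 and 974, so the wild-type values lay between the Hdac3-deleted ones.

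In class III, 4 sites were higher and 1 was lower in Hdac3-deleted cells, while 72 did not pass the test. The median log2 fold change of the stretch was 0.09, and it ran from 0.02 without wild-type replicate 2 to 0.15 without Hdac3-deleted replicate 2. Its mean log2 level was 7.69 ± 0.13 in Hdac3-deleted cells and 7.55 ± 0.01 in wild type (SD, n = 2 each), a difference of the size of the Hdac3-deleted spread.

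The largest class III rise was at chr17:34561107-34561681, with 316 and 199 normalized reads in Hdac3-deleted cells and 64.4 and 104 in wild type. All Hdac3-deleted values exceeded the wild-type ones, as the choice of named calls required. The log2 fold change was 1.60 with a standard error of 0.29 (Benjamini-Hochberg adjusted p = 0.00134 in limma). At chr17:34639611-34639986 Hdac3-deleted cells had 277 and 142 normalized reads and wild type had 75.05 and 80.5 (log2 fold change 1.34). The site at chr17:35115775-35116121 held 128 and 65.1 in Hdac3-deleted cells and 33.2 and 44.2 in wild type (log2 fold change 1.23). In all 3 the higher value came from Hdac3-deleted replicate 1. Without that replicate, the other two sites missed the threshold (limma, adjusted p of 0.0837 and 0.293), and the last one also missed it without wild-type replicate 1 (limma, adjusted p = 0.130). The lower site, chr17:35027282-35027972, had 297 and 324 normalized reads in Hdac3-deleted cells and 550 and 478 in wild type, with a log2 fold change of -0.72 and a standard error of 0.16 (Benjamini-Hochberg adjusted p = 0.00546 in limma). Its adjusted p was 0.0618 without wild-type replicate 1 and 0.138 when scaled to the tags left after filtering (limma).

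Class III also held the most accessible site of the whole MHC region, chr17:34603366-34604521. It had 2785 and 2765 normalized reads in Hdac3-deleted cells and 2662 and 2487 in wild type. The groups did not overlap, and the log2 fold change of 0.11 ± 0.07 (standard error) did not pass the test. After loess scaling it did, with a log2 fold change of 0.20 (adjusted p = 0.0465, limma). The second strongest of the stretch, chr17:35164483-35165579, had 1560 and 1538 in Hdac3-deleted cells and 1432 and 1319 in wild type (log2 fold change 0.17, Benjamini-Hochberg adjusted p = 0.205 in limma).

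The border between class III and the distal class I stretch is approximate. Which class I genes lie on each side of it was not determined. The distal class I stretch is the largest and held 22 of the 32 calls, 14 higher and 8 lower. Log2 fold changes above 1 in size were measured at 18 of its 130 sites (13.8%), close to the 13.3% over all sites, and at 3 of 54 sites in class II and 3 of 77 in class III. The median of the stretch was 0.00. Its mean log2 level was 7.33 ± 0.07 in Hdac3-deleted cells and 7.27 ± 0.02 in wild type (SD, n = 2 each).

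Along the stretch the directions were counted in bins of 0.5 Mb. From 35.3 to 35.8 Mb, 6 of 33 sites were higher and 0 lower, with a median log2 fold change of 0.29. From 35.8 to 36.3 Mb, 5 of 63 were higher and 2 lower, with a median of 0.02. The sparse part from 36.3 to 36.8 Mb had 0 of 9 higher and 4 lower, with a median of -0.65. From 36.8 to 37.3 Mb, 3 of 25 were higher and 2 lower, with a median of -0.03. In the order of the bins, 18.2%, 11.1%, 44.4% and 20% of the sites were called in either direction. Over all sites of the table it was 20.6%, with 11.7% higher and 8.90% lower. The bins describe small numbers of sites and were drawn with the calls known.

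The largest rise of the whole MHC region was at chr17:35692028-35692772, with 482 and 363 normalized reads in Hdac3-deleted cells and 90.3 and 160 in wild type (log2 fold change 1.79 with a standard error of 0.25, Benjamini-Hochberg adjusted p = 0.000316 in limma). Its neighbours on both sides were higher too. At chr17:35688759-35689098 Hdac3-deleted cells had 244 and 221 normalized reads and wild type had 59.1 and 99.8 (log2 fold change 1.58). At chr17:35700455-35700971 they had 238 and 182, and wild type had 94.3 and 94.2 (log2 fold change 1.13). These 3 sites follow each other within 12.2 kb with no other site between them. In each of them every Hdac3-deleted value lay above every wild-type value, as at every other higher call of the region.

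A second run of 3 higher sites, 26.2 kb long, began at chr17:36966816-36967201. That site had 246 and 218 normalized reads in Hdac3-deleted cells and 64.4 and 73.7 in wild type (log2 fold change 1.73 with a standard error of 0.25, Benjamini-Hochberg adjusted p = 0.000363 in limma). The next, chr17:36971223-36971793, had 229 and 295 in Hdac3-deleted cells and 85.0 and 119 in wild type (log2 fold change 1.36). The last, chr17:36992822-36992980, was weakly covered, with 62.9 and 42.5 in Hdac3-deleted cells and 19.3 and 20.4 in wild type (log2 fold change 1.34, Benjamini-Hochberg adjusted p = 0.0445 in limma). Its call was lost without Hdac3-deleted replicate 1, without wild-type replicate 1 and without wild-type replicate 2. Between these runs, the site chr17:36229054-36229432 had 376 and 291 normalized reads in Hdac3-deleted cells and 120 and 140 in wild type (log2 fold change 1.35). Of 11 further sites up to 50 kb away 0 were called, beside 10.3% of the MHC sites and 20.6% of all sites.

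The largest fall of the MHC region was at chr17:36763358-36763608. Hdac3-deleted cells had 16.98 and 27.9 normalized reads there, which came from 17 and 21 reads, and wild type had 135 and 106, from 204 and 93 reads. The groups lay far apart, with a log2 fold change of -2.40 and a standard error of 0.38 (Benjamini-Hochberg adjusted p = 0.000615 in limma). The site next to it, chr17:36764294-36764600, was also lower, with 95.9 and 155 in Hdac3-deleted cells and 262 and 229 in wild type (log2 fold change -0.9996), although that call was lost without wild-type replicate 1 and without Hdac3-deleted replicate 1 (adjusted p of 0.0524 and 0.0921, limma). This pair is the first to follow the 331 kb without sites.

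On the other side of that empty stretch, 2 neighbouring sites were lower as well. At chr17:36384965-36385295 Hdac3-deleted cells had 19.98 and 45.2 normalized reads and wild type had 149 and 89.6 (log2 fold change -1.90, Benjamini-Hochberg adjusted p = 0.00413 in limma). Without wild-type replicate 1 its adjusted p was 0.0660 (limma). At chr17:36355390-36355747 Hdac3-deleted cells had 61.9 and 63.8, and wild type had 169 and 120 (log2 fold change -1.17), and without wild-type replicate 1 the adjusted p was 0.165 (limma). The fall at chr17:36915138-36915308 rested on few reads: 26 and 6 in Hdac3-deleted cells and 58 and 57 in wild type, or 26.0 and 7.97 against 38.5 and 64.7 normalized reads (log2 fold change -1.71, Benjamini-Hochberg adjusted p = 0.0412 in limma). That call was lost without wild-type replicate 1, without wild-type replicate 2 and without Hdac3-deleted replicate 2, where its log2 fold change was -0.92, and by DESeq2 (adjusted p = 0.108).

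The strongest sites of the distal class I stretch did not pass the test. At chr17:37269849-37271205, the last site of the region, Hdac3-deleted cells had 1984 and 2038 normalized reads and wild type had 2079 and 2010, a log2 fold change of -0.02 ± 0.08 (standard error). At chr17:35841152-35841925 Hdac3-deleted cells had 1716 and 1821, and wild type had 1711 and 1773 (log2 fold change 0.02). An exception among the broad MHC sites was chr17:37045630-37047081, 1452 bp wide. It had 801 and 864 normalized reads in Hdac3-deleted cells and 1065 and 1207 in wild type (log2 fold change -0.45, Benjamini-Hochberg adjusted p = 0.0110 in limma). Without Hdac3-deleted replicate 1 and without wild-type replicate 2 its adjusted p was 0.0535 and 0.104 (limma). It was the only called one of the 20 most accessible MHC sites and of the 25 MHC sites of 1000 bp or more.

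**Figure D3:**
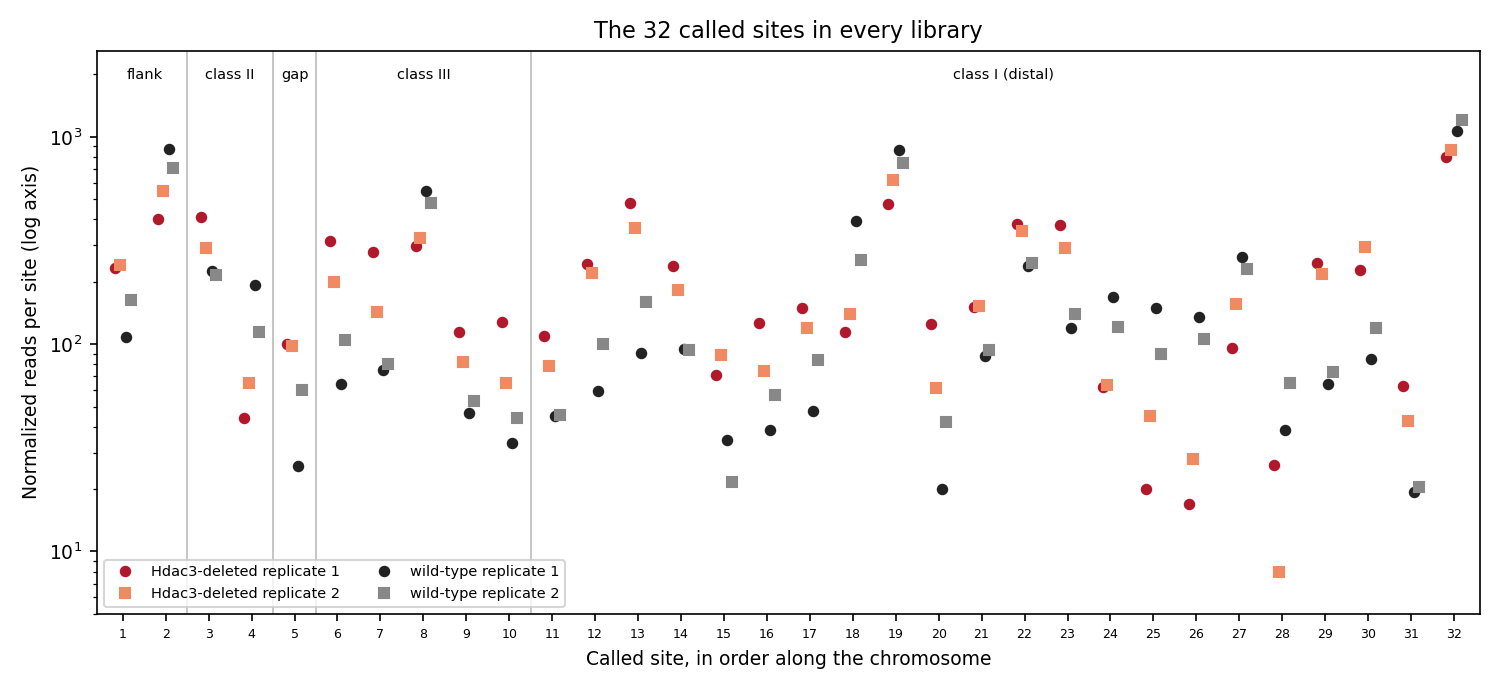
Normalized reads (log y axis) of the 32 called sites in each library, in chromosome order (x axis) and grouped by stretch. Circles and squares are replicates 1 and 2, in red and orange for Hdac3-deleted and in black and grey for wild type. At all 32 sites both Hdac3-deleted values lie on one side of both wild-type values. Called or not, 30.1% of all sites of the table had both Hdac3-deleted values above both wild-type values, and 30.5% had them below.

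In the gap between class II and class III, 1 of 2 sites was higher. This site, chr17:34437959-34438375, had 99.9 and 98.3 normalized reads in Hdac3-deleted cells and 25.9 and 60.1 in wild type (log2 fold change 1.30, Benjamini-Hochberg adjusted p = 0.0240 in limma). Without wild-type replicate 1, which held the lowest value, its log2 fold change was 0.71 and its adjusted p was 0.307 (limma), and without Hdac3-deleted replicate 1 its adjusted p was 0.0663 (limma). DESeq2 gave this site an adjusted p of 0.0566.

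The proximal flank had 1 higher and 1 lower site among 23. At chr17:33563602-33564053 Hdac3-deleted cells had 234 and 242 normalized reads and wild type had 108 and 163 (log2 fold change 0.83, Benjamini-Hochberg adjusted p = 0.0207 in limma). At chr17:33780960-33781739 Hdac3-deleted cells had 403 and 550, and wild type had 871 and 707 (log2 fold change -0.74, Benjamini-Hochberg adjusted p = 0.00478 in limma). The higher of these calls was lost without wild-type replicate 1 (log2 fold change 0.54) and without either Hdac3-deleted replicate (0.86 without replicate 1 and 0.81 without replicate 2). Scaling to the tags left after filtering ended both calls, with adjusted p of 0.0927 for the higher and 0.120 for the lower site (limma). The strongest site of the flank, chr17:33759729-33760820, had 1842 and 2025 in Hdac3-deleted cells and 1966 and 2107 in wild type, with overlapping groups.

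The called MHC sites were mostly not the strongest ones. When the whole table was split by level into 3 groups of equal size, at 82.4 and 214 normalized reads, the highest group took in 133 MHC sites, of which 4 were higher and 5 lower (6.77% called, against 22.6% of all sites of that group). The middle group had 97 MHC sites with 9 higher and 3 lower (12.4%, against 23.4%), and the lowest group had 80 with 8 higher and 3 lower (13.8%, against 15.7%). The 21 higher sites had a median of 144 normalized reads and reached 304 at most, while the 11 lower ones had a median of 186 and reached 984. Among the 20 most accessible MHC sites, with means from 870 to 2675 normalized reads, log2 fold changes ran from -0.45 to 0.23.

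**Figure D4:**
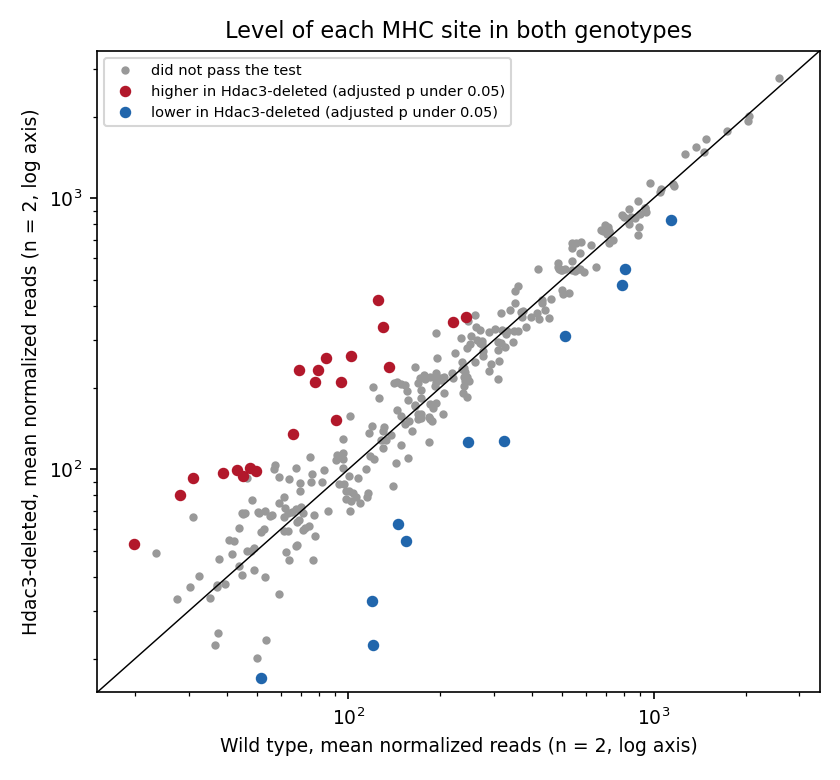
Mean normalized reads of each of the 310 MHC sites in Hdac3-deleted cells (y axis) and in wild type (x axis), both on log axes, with n = 2 libraries each. The line marks equal levels. Higher sites (red) have means over all libraries of at most 304 reads, and the strongest sites lie along the line.

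Some called sites stood next to each other. Of the 32 called sites, 12 formed 5 runs of 2 or 3 sites in the same direction with no other site between them, or 37.5%, against 40.4% of the called sites of the whole table. All of these runs lay in the distal class I stretch, which also held 22 of the 32 calls. Replicates also differed within each genotype at the called sites. Hdac3-deleted replicate 1 was above Hdac3-deleted replicate 2 at 17 of the 21 higher sites (81.0%, against 72.9% of the higher sites of the whole table) and at 1 of the 11 lower sites (9.09%, against 35.7%). Wild-type replicate 1 was below wild-type replicate 2 at 18 of the 21 higher sites (85.7%, against 75.5%) and at 2 of the 11 lower ones (18.2%, against 28.7%). At most called sites of either direction, then, replicate 1 of a genotype lay farther from the other genotype than replicate 2 did. The part of these 2 libraries in the number of calls is given above by leaving each one out. Over all 310 MHC sites the median difference between replicates was 0.23 in size on the log2 scale in Hdac3-deleted cells and 0.18 in wild type, against a median of 0.21 for the size of the log2 fold change. Over the whole table the median size of the log2 fold change was 0.33, with replicate differences of 0.24 in Hdac3-deleted cells and 0.22 in wild type.

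Peaks called by the authors in each library by itself give a second view of the same reads. All 4 libraries had a peak at 214 MHC sites (69.0%, against 65.4% of all sites). Peaks in both Hdac3-deleted libraries and in neither wild-type library were found at 8 MHC sites (2.58%, against 4.35%), and the opposite pattern at 25 (8.06%, against 8.84%). The K end had 0 sites of either pattern. In class II, 1 of 54 sites had peaks only in the Hdac3-deleted pair (against 4.35% of all sites) and 7 of 54 only in the wild-type pair (against 8.84%). Of the 21 higher MHC sites, 14 had a peak in every library and 5 only in the Hdac3-deleted pair. Of the 11 lower ones, 8 had a peak in every library and 2 only in the wild-type pair. Peaks and calls come from the same reads, and these patterns were not counted among the called sites of the whole table. Whether the counts at the called sites are particular to the MHC can therefore not be told. The Hdac3-deleted libraries had 282 and 288 peaks in the MHC region and the wild-type libraries had 349 and 299, and of these 7, 10, 45 and 4 lay at no site of the table. Wild-type replicate 1, with 45, was also the most deeply sequenced library.

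The borders of the region were drawn by position, and the sites just inside and outside them were as follows. The last site outside on the proximal side, chr17:32992895-32993555, had 257 and 219 normalized reads in Hdac3-deleted cells and 226 and 242 in wild type. The first site inside, chr17:33032831-33033536, had 241 and 247 in Hdac3-deleted cells and 324 and 262 in wild type. On the distal side the last site inside was chr17:37269849-37271205, described above. The first outside was chr17:39843059-39847149, with 55219 and 51579 normalized reads in Hdac3-deleted cells and 60771 and 58048 in wild type, a level far above any MHC site. Its mean of 56404 was the highest of the whole table, and why it stood so high was not tested. It was called lower (log2 fold change -0.15, Benjamini-Hochberg adjusted p = 0.00085 in limma).

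The authors' own comparison gave a similar number of calls in the region. At an FDR under 0.05 in the authors' deposited table, Hdac3-deleted cells were higher at 27 of 310 MHC sites, against 15.3% of all sites. They were lower at 11 of 310, against 9.80% of all sites. Both directions together made up 12.3% of the MHC sites, less than the higher share alone over all sites. Of the 32 calls made here, the authors' deposited table made 20 higher and 9 lower ones as well, and it gave 0 of them in the opposite direction.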

How the data were processed

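The deposited site table holds, for each library, a signal value per site: reads normalized by the authors. It also carries the authors' log2 levels and fold, p-value and FDR, which are quoted only where named. The submitters' processing notes list DiffBind (1.10.2), edgeR, SAMtools, Bowtie2 (2.2.4) and MACS2 (2.0.10), and the builds mm10 and dm3, without saying what each was used for. Per the file headers, MACS2 2.0.10.20131216 called peaks library by library, with no control library and a q cutoff of 0.001. Tags were extended by it to 140 bp, with 1 tag allowed per position, and its input carried names for quality filtering, duplicate removal and shifting. The deposited peak lists give pileup (a signal), p-value and q-value as −log10, and fold enrichment as a ratio, per the file headers. Peak positions were used here, and −log10 q only for a stricter alternative, which moved no count by over 1.5 times. Without molecular identifiers, reads may be copies of 1 molecule.

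Table columns were matched to samples through the name of each sample's own peak file, so KO_B is Hdac3-deleted replicate 1. Deposited starts lie 1 bp before the peak starts. Values were whole multiples of 1 read, worth 0.999, 1.33, 0.664 and 1.13 normalized reads in Hdac3-deleted replicates 1 and 2 and wild-type replicates 1 and 2 (100% of values within 0.001 reads), which gave the reads. No site was of Drosophila (0 features).

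The main test was limma 3.58.1 (R 4.3.3) on log2(value + 1) over all 69709 sites with a mean-dependent prior, no covariates and no filter, so fold changes of low sites are understated. It was tested on simulated reads with the same relative spread at every site and large changes at well-covered sites only. That run does not show how well smaller changes, or changes at low sites, are found. Alternatives were edgeR 4.0.16 (quasi-likelihood, 14618 sites called over the table), DESeq2 1.42.0, other scalings, pseudocounts, a filter, each library left out and replicate blocks. The crossed block was chosen after seeing the data. Members, stretches, site rules and tests were chosen with earlier results of these data known. Named sites were, per class stretch, up to 3 called sites per direction (5 in class II) with the largest change and groups that did not overlap, and the 2 strongest; per flank and gap up to 2 and 1. Neighbours in a run, the sites described at chr17:36229054-36229432 and chr17:37045630-37047081, and the bins were chosen after their values were seen. The planned gene lists need an mm10 annotation and were not used here.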

Additional observations from a re-analysis of the deposited data

How the results depend on the processing

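The MHC region had a smaller share of called sites than the whole table under each of the 15 other fits that were run, from 4.52% to 15.8% of MHC sites against 9.46% to 27.8% of all sites. Class II had between 1 and 8 called sites and the K end at most 2. Among the 9 named sites that were not called, 2 became calls after loess scaling. No named call changed sign; of the 15 named calls 5 passed the threshold in all 15 fits, and of the 32 calls 9 did (7 higher and 2 lower, 8 of them in the distal class I stretch).

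Higher MHC sites numbered 8 to 26 and lower ones 4 to 12 when 1 library was left out (21 and 11 with all), the lone library of its genotype being taken to vary like the others. An adjusted p under 0.01 left 8 higher and 7 lower, and scaling to the tags left after filtering gave 14 higher and 7 lower. The replicate block gave 20 and 11. Deviations from the genotype means were only weakly correlated between same-numbered libraries (-0.104). With 2 libraries per genotype the crossed value is the same with its sign turned (0.104). With crossed pairs the replicate block gave 34 higher and 15 lower. The labels do not pair the samples, and no other count of region calls moved by more than 1.5 times.

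The median of the distal class I stretch was 0.0285 with edgeR, 0.0347 with library totals and 0.0314 with loess, and between -0.00183 and 0.0469 with 1 library left out (0.00475 with all). That of the 2-site gap was 1.30 with a filter at 50 reads (1 site left) and -0.15 with borders moved 50 kb to the left. With a peak required to cover 0.5 of the site, 13 sites had peaks only in the Hdac3-deleted pair. Except in the changes of construction named (fewer samples or sites), the cause was not tested. With 2 libraries per genotype an exact permutation test of a single site cannot go below p = 0.333.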
